A study of Mus musculus with 42 samples.

Results

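Reprogramming turns fibroblasts into induced pluripotent stem cells (iPSC), and the comparison reported here sets finished naivex2 (nx2) iPSC clonal lines against the latest sorted cells of the time course, the nx2 cells of day 14 that carried both fluorescent reporters (mCherry+/GFP+, labelled Stage V and called day 14 GFP+ cells below). It shows which genes still differed between cells with both reporters on and established lines. The libraries were chosen by their labels alone: 3 iPSC libraries and 3 day 14 GFP+ libraries, of 42 libraries in 14 groups. All genes of the poly(A) RNA-seq count table were examined, 48321 names, of which 16132 passed a filter on low counts.

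Both groups came from a cross of B6; 129S4-Tg(Tet1-mCherry)B37Koh with B6;CBA-Tg(Pou5f1-EGFP)2Mnn/J mice, carried Tg(mCherry)/wt; Tg(GFP)/wt, and were labelled male. By the names of the transgenes, mCherry reports on Tet1 and GFP on Pou5f1. Each iPSC sample is 1 clone, 1 from each of the lines labelled 65E1, 65E4 and 65E5, and was grown for 6 to 7 passages on feeder fibroblasts in KSR medium and then depleted of feeders. The day 14 GFP+ cells were sorted from reprogramming cultures of the same 3 labelled lines. Clonal origin, passage, feeders and the way cells were harvested therefore differ together with the groups and cannot be told apart. The starting mouse embryonic fibroblasts (MEF), the sorted cells of days 10 and 12 and the day 14 mCherry+/GFP- cells (day 14 GFP- cells below) are used only as reference levels. So are 3 wild-type iPSC clonal lines (genotype wt/wt;GFP/wt, from a cross of the strain B6- Tet1tm1Koh with the same GFP mice), which were sequenced in the 2nd batch, are in another count table and were normalized separately, whereas both groups compared are of the 1st batch. Values are given in the order 65E1, 65E4, 65E5, as CPM, the count relative to the library's total after that total was scaled by TMM (a correction for differences in RNA composition), and log2 fold changes are iPSC over day 14 GFP+ cells with their standard errors.

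Pluripotent mouse cells are held in a naive state by a network of transcription factors that includes Pou5f1, Nanog, Esrrb and Tfcp2l1. FGF4 made by the cells themselves signals through the kinase ERK and pushes them towards a formative state, while ERK-induced phosphatases and Sprouty proteins restrain the same pathway. Feeder fibroblasts supply matrix and growth factors to such cultures, so fibroblast transcripts in an iPSC library can come from the iPSC or from cells left behind after depletion.

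The iPSC libraries held 13803350 to 17530338 counted reads and the day 14 GFP+ libraries 9693737 to 13631669. Mitochondrial transcripts made up 2.40% to 2.79% of counts in iPSC and 3.26% to 4.02% in day 14 GFP+ cells. The sum of 9 pluripotency markers was 3440, 3628 and 3470 CPM in iPSC, against 4059, 4195 and 4114 CPM in day 14 GFP+ cells and at most 3.87 CPM in MEF, so both groups carried the labelled identity. Sox2 had 0 counts in every library because its whole span lies inside Sox2ot on the same strand and reads in both were not counted.

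Several libraries stood apart or went against their line label. The pseudogene Gm15772 was at 120, 104 and 15.5 CPM in iPSC, against 117, 19.8 and 119 CPM in day 14 GFP+ cells, so its low library carries the label 65E5 among iPSC and 65E4 among day 14 GFP+ cells. Pcna-ps2 was at 1.20, 1.08 and 28.4 CPM in iPSC, against 0.980, 21.2 and 0.157 CPM in day 14 GFP+ cells, and Ehd3 and Ankrd31 were exchanged in the same way. These 4 markers, chosen after their values were seen, thus put the labels 65E4 and 65E5 on opposite libraries in the 2 groups. In MEF, Gm15772 was at 86, 14.4 and 83.3 CPM and Pcna-ps2 at 0.117, 9.93 and 0.236 CPM, which is the order of labels in the day 14 GFP+ cells and not that in iPSC. Of 3 markers of 65E1, Gm8420, at 0, 17.3 and 18.5 CPM in iPSC against 0.098, 22.2 and 24 CPM in day 14 GFP+ cells, and Gm5292 set that line apart in both groups. Cfap70 did not, at 0.707, 0.685 and 0.931 CPM in iPSC against 0.784, 14.7 and 27.9 CPM in day 14 GFP+ cells. The comparison of the groups does not use the line, and below a sample is named as the library labelled 65E4 or 65E5. In addition, the sum of 4 Y-linked genes (Ddx3y, Uty, Kdm5d and Eif2s3y) was 268, 275 and 27.3 CPM in iPSC, against 273, 271 and 284 CPM in day 14 GFP+ cells, so the iPSC library labelled 65E5 held 10.1% of the mean of the other iPSC libraries.

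**Figure D1:**
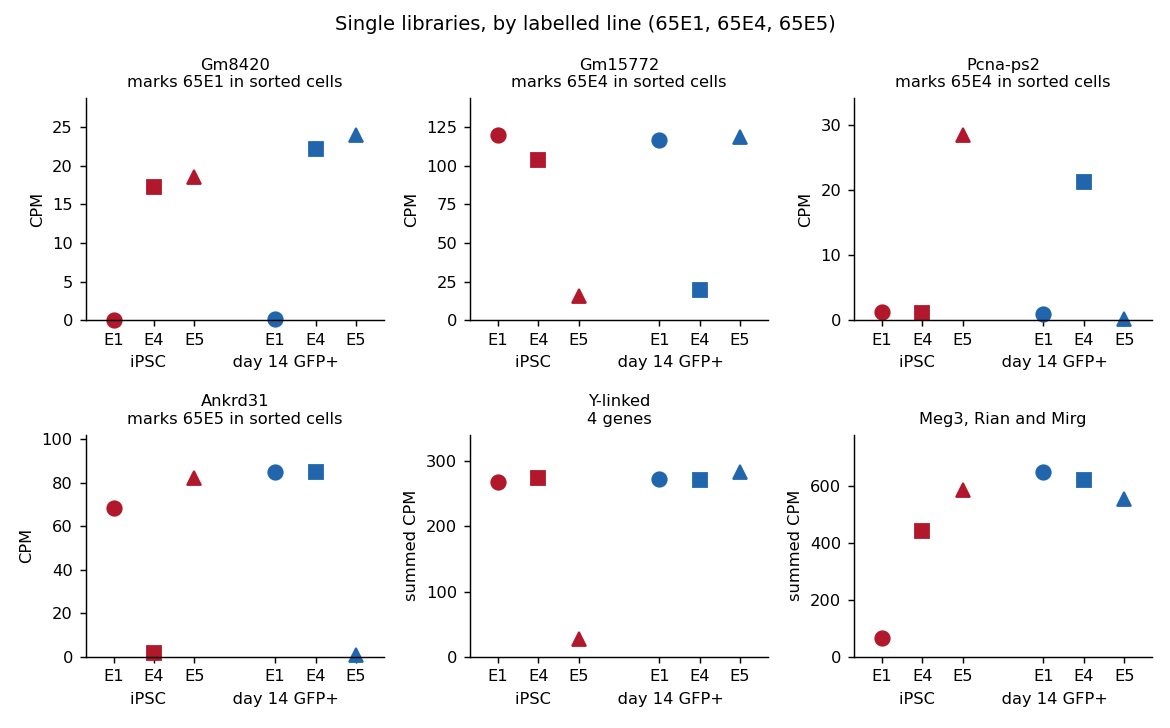
Levels (CPM) of 4 line-specific transcripts, of the sum of 4 Y-linked genes and of the sum of Meg3, Rian and Mirg, by labelled line (65E1, 65E4, 65E5), in iPSC and in day 14 GFP+ cells. Gm15772, Pcna-ps2 and Ankrd31 show the extreme library under different line labels in the 2 groups, the Y-linked sum is 27.3 CPM in the iPSC library labelled 65E5, and the Meg3, Rian and Mirg sum is 65.1 CPM in the iPSC library labelled 65E1.

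RNA of fibroblast-restricted genes was higher in iPSC, and its amount differed between the 3 libraries. As a measure of fibroblast RNA, called the feeder share below, 41 genes were taken that were at 100 CPM or more in MEF and at no more than 1% of that level in the sorted cells of day 10. Their median level was 1.75%, 6.96% and 2.42% of the MEF level in iPSC, against 0.909%, 0.730% and 0.637% in day 14 GFP+ cells. The iPSC library labelled 65E4 was the highest, and the groups did not overlap. In the sorted day 14 GFP- cells the median was 2.08%, 1.63% and 1.59%, which overlapped the lower end of the iPSC range, so values of this size also occurred in sorted cells. Of these 41 genes, 35 rose, 1 fell and 5 did not pass the test, with a median log2 fold change of 2.53, where 24.3% of all tested genes rose. They were chosen as low in sorted cells of the same time course, so this count is not independent of the choice. With a list of 40 fibroblast and mesenchymal genes as the measure, the medians overlapped. They were 7.36%, 15.1% and 5.68% in iPSC, against 6.67%, 5.16% and 4.9% in day 14 GFP+ cells. MEF stand here for the feeders, whose own RNA was not analysed here, and fewer fibroblasts cannot be told apart from less RNA per fibroblast in such bulk samples.

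**Figure D2:**
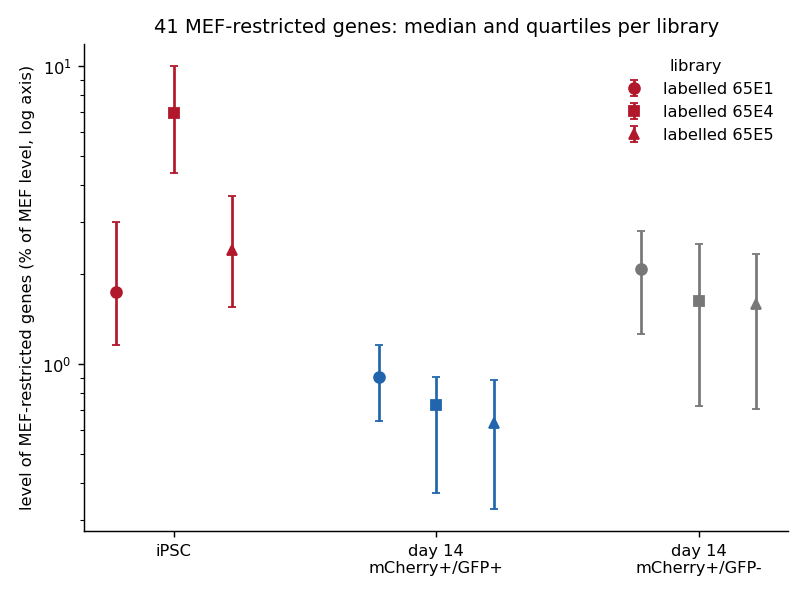
Median level, with quartiles, of 41 fibroblast-restricted genes as a percentage of their mean level in MEF (log axis), for each library of iPSC, day 14 mCherry+/GFP+ and day 14 mCherry+/GFP- cells. The iPSC libraries sit at 1.75%, 6.96% and 2.42%, above the day 14 GFP+ libraries at 0.637% to 0.909%, and the day 14 GFP- libraries at 1.59% to 2.08%.

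The sum of 11 defining fibroblast markers was 2021, 3497 and 1311 CPM in iPSC, against 2724, 1999 and 1654 CPM in day 14 GFP+ cells and 21540 to 22400 CPM in MEF, so these sums overlapped. Of these 11 markers 6 rose and 0 fell, where 24.3% of all tested genes rose and 22.5% fell. The abundant Col1a1 and Col1a2, given below, weigh heavily in the sums. The 40 genes of a wider fibroblast and mesenchymal list did not move as a block. In this list 21 genes rose, 1 fell and 18 did not pass the test, where 24.3% of all tested genes rose and 22.5% fell. Vim, an intermediate filament protein of mesenchymal cells, was at 452, 772 and 422 CPM in iPSC, against 233, 188 and 166 CPM in day 14 GFP+ cells (log2 fold change 1.49 ± 0.22, adjusted p = 3.13e-05), and its MEF level was 6065 CPM. Thbs1, a matrix glycoprotein, was at 382, 2177 and 672 CPM in the iPSC libraries and 124, 81.8 and 91.7 CPM in the day 14 GFP+ libraries (log2 fold change 3.45 ± 0.53, adjusted p = 7.97e-05). MEF held 14400 CPM of Thbs1. In both genes the library labelled 65E4 was the highest of the iPSC libraries, and the groups did not overlap. Without it the log2 fold change of Thbs1 was 2.41. Twist2, a mesenchymal transcription factor, was also highest there, at 4.17, 5.88 and 2.86 CPM in the 3 iPSC clones and 0.588, 0.496 and 0.236 CPM in day 14 GFP+ cells (log2 fold change 3.29 ± 0.39, adjusted p = 9.08e-07). The collagens differed from this: Col1a1 was at 546, 844 and 289 CPM in iPSC, against 927, 693 and 552 CPM in day 14 GFP+ cells (log2 fold change -0.37 ± 0.36, adjusted p = 0.428). Col1a2 was at 378, 624 and 205 CPM in the iPSC libraries and 623, 462 and 371 CPM in the day 14 GFP+ libraries (log2 fold change -0.27 ± 0.37, adjusted p = 0.586). The libraries overlapped and neither passed the test; in MEF these collagens were at 8697 and 4014 CPM. Fn1, fibronectin, was the gene that fell, at 2731, 2509 and 2032 CPM in the 3 iPSC clones and 3031, 3069 and 3217 CPM in day 14 GFP+ cells (log2 fold change -0.36 ± 0.09, adjusted p = 0.0023).

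As a coarse mark for fibroblast RNA, each rise was set against the MEF level of the same gene. A rise was counted as beyond the feeder share where the difference in mean CPM exceeded 20.9% of the MEF mean, which is 3 times the largest iPSC median. Of 3924 genes that rose, 2329 (59.4%) passed this mark and 1595 did not. Passing it does not exclude fibroblast RNA. For genes with little RNA in MEF nearly any rise passes it. Of the 21 rises on the fibroblast and mesenchymal list 2 passed, and the fibroblast markers Dcn and Lum were among the genes that passed. The number of rises that passed it is given below for the lists where it matters most. Without the iPSC library labelled 65E4 the largest share was 2.42% and 3062 rises passed. With the wider list of 40 fibroblast genes as the measure the largest share was 15.1% and 1269 rises passed.

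**Figure D3:**
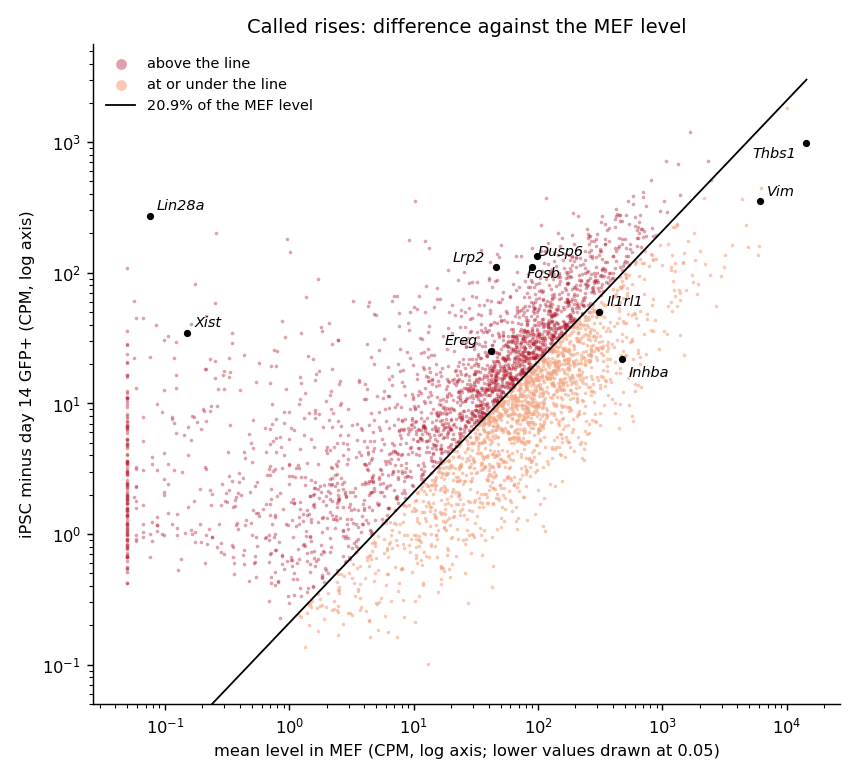
Genes that rose in iPSC, by mean level in MEF (CPM, x axis) and difference in mean CPM, iPSC minus day 14 GFP+ cells (y axis), both on log axes. The line marks a difference of 20.9% of the MEF level; Lin28a, Xist, Lrp2, Dusp6, Fosb and Ereg lie above it, and Il1rl1, Inhba, Vim and Thbs1 below it.

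Across all genes, 7555 of 16132 (46.8%) differed, 3924 higher (24.3%) and 3631 lower (22.5%) in iPSC. Counts per list below are to be read against these shares. The median log2 fold change was 0.02. The libraries of the groups did not overlap for 53.1% of the genes. At least a 2-fold difference was present in 2740 genes (17%), 1394 higher and 1346 lower. Correlations of log2 levels across genes were 0.980 to 0.983 among the iPSC clones, 0.988 to 0.990 among day 14 GFP+ samples and 0.938 to 0.956 between the groups, with genes not independent of each other.

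**Figure D4:**
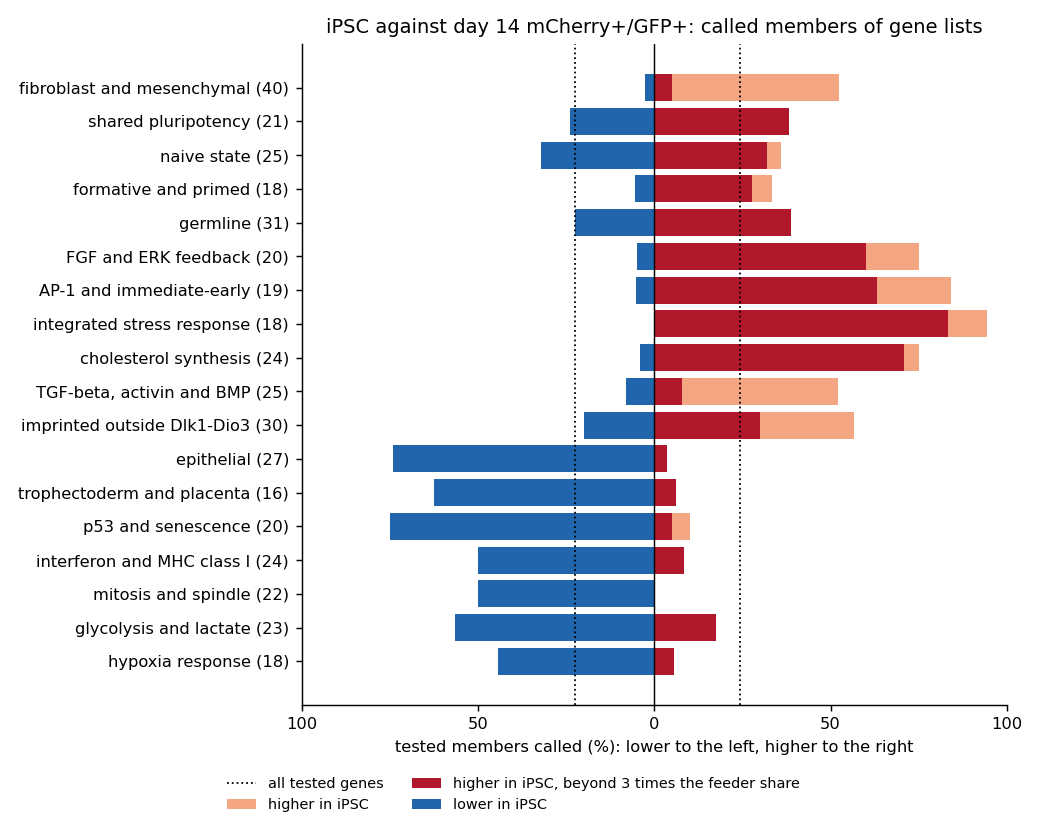
Share (percent) of the tested genes of 18 lists that were called higher or lower in iPSC than in day 14 GFP+ cells; dotted lines mark the shares over all tested genes, 24.3% higher and 22.5% lower. The integrated stress response, immediate-early, cholesterol synthesis and FGF and ERK feedback lists lie furthest towards higher, and the p53, epithelial and trophectoderm lists towards lower.

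Shared pluripotency genes moved in both directions, with the RNA-binding Lin28 genes higher and Nanog lower in iPSC. Of 21 tested of 22 shared pluripotency genes, 8 rose, 5 fell and 8 did not pass the test. The falls were about as frequent as among all tested genes (22.5%). All 8 rises were beyond the feeder share, and the 5 falls became 3 without any 1 of the day 14 GFP+ libraries. The tested genes of this list summed to 74.9 to 80.3 CPM in MEF, so the feeder mark was low for them. Pou5f1, the factor behind the GFP reporter, was at 689, 808 and 676 CPM in iPSC, against 866, 913 and 834 CPM in day 14 GFP+ cells (log2 fold change -0.27 ± 0.12, adjusted p = 0.0797), and it did not pass the test although the groups did not overlap. Without the iPSC library labelled 65E4 the adjusted p was 0.0356, and with only the 6 libraries in the fit 0.0321. Nanog fell, at 477, 438 and 448 CPM in the iPSC libraries and 702, 713 and 738 CPM in the day 14 GFP+ libraries (log2 fold change -0.66 ± 0.10, adjusted p = 1.12e-05). Nanog was at 535 CPM at day 10, 470 CPM in day 12 GFP+ cells and 729 CPM in day 14 GFP- cells, so the iPSC level was near that of day 12. Lin28a, which blocks maturation of let-7 microRNAs, was at 338, 459 and 319 CPM in the 3 iPSC clones and 107, 95.1 and 91.8 CPM in day 14 GFP+ cells (log2 fold change 1.93 ± 0.14, adjusted p = 9.06e-10). Its lowest iPSC library stood above every day 14 GFP+ library, and its level was 0.0757 CPM in MEF, 39.5 CPM at day 10 and 48 CPM in day 12 GFP+ cells. Its paralog Lin28b was at 27.6, 26.6 and 39 CPM in iPSC, against 9.51, 9.42 and 8.56 CPM in day 14 GFP+ cells (log2 fold change 1.76 ± 0.18, adjusted p = 1.47e-07), also without overlap. Rex2, a zinc finger gene, was at 26.2, 30.1 and 30.0 CPM in the iPSC libraries and 6.37, 5.45 and 6.44 CPM in the day 14 GFP+ libraries (log2 fold change 2.24 ± 0.26, adjusted p = 5.83e-07).

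Naive-state genes moved in both directions: of 25 genes, 9 rose, 8 fell and 8 did not pass the test, and 8 of the rises were beyond the feeder share. Esrrb, a nuclear receptor of the naive network, was at 734, 681 and 687 CPM in the 3 iPSC clones and 719, 767 and 735 CPM in day 14 GFP+ cells (log2 fold change -0.08 ± 0.08, adjusted p = 0.457), with overlapping libraries. Zfp42 (Rex1) was somewhat lower, at 79.8, 89.4 and 86.5 CPM in iPSC, against 105, 105 and 117 CPM in day 14 GFP+ cells (log2 fold change -0.35 ± 0.12, adjusted p = 0.0241). This call was lost without the iPSC library labelled 65E1 (adjusted p = 0.0629) or the day 14 GFP+ library labelled 65E5 (adjusted p = 0.0973). The 3 strongest falls were of genes shared with early germ cells or tied to naive cells. Dppa3 (Stella), a maternal factor that protects methylation marks in the zygote, was at 5.23, 3.99 and 3.48 CPM in the iPSC libraries and 41.1, 41.1 and 49.3 CPM in the day 14 GFP+ libraries (log2 fold change -3.38 ± 0.16, adjusted p = 2.66e-12). Its level was 68.9 CPM at day 10, 37.1 CPM in day 12 GFP+ cells and 98.5 CPM in day 14 GFP- cells, so the iPSC level was the lowest of the sorted and established stages. Spic, an Ets-family factor, was at 0.707, 1.08 and 1.61 CPM in the 3 iPSC clones and 8.04, 7.72 and 12.3 CPM in day 14 GFP+ cells (log2 fold change -3.02 ± 0.28, adjusted p = 6.39e-08). Prdm14, which represses FGF receptor signalling and de novo methylation genes in naive cells, was at 23, 22.5 and 27.3 CPM in iPSC, against 54.8, 70.8 and 64.2 CPM in day 14 GFP+ cells (log2 fold change -1.38 ± 0.14, adjusted p = 7.94e-08). None of these 3 overlapped between groups. Manba, a lysosomal mannosidase whose transcript belongs to the naive list, rose, at 351, 406 and 439.6 CPM in the iPSC libraries and 229, 218 and 225 CPM in the day 14 GFP+ libraries (log2 fold change 0.83 ± 0.09, adjusted p = 1.34e-07).

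In the formative and primed list, 18 of 23 genes were tested, 6 rose and 1 fell, 5 of the rises beyond the feeder share. Etv4, an Ets factor induced by ERK, was at 139, 198 and 189.6 CPM in the 3 iPSC clones and 43.8, 45 and 33 CPM in day 14 GFP+ cells (log2 fold change 2.11 ± 0.16, adjusted p = 1.63e-09). Lefty1, a Nodal antagonist, was at 26.7, 10.8 and 21 CPM in iPSC, against 6.17, 6.23 and 3.46 CPM in day 14 GFP+ cells (log2 fold change 1.88 ± 0.30, adjusted p = 4.63e-05). Sox4 was at 59.6, 65.4 and 49.7 CPM in the iPSC libraries and 18.7, 15.9 and 13 CPM in the day 14 GFP+ libraries (log2 fold change 1.88 ± 0.16, adjusted p = 9.39e-09), but its level in MEF was 381 CPM. Wnt8a fell, at 0.566, 0.513 and 0.248 CPM in the 3 iPSC clones and 0.882, 1.06 and 0.864 CPM in day 14 GFP+ cells (log2 fold change -1.08 ± 0.38, adjusted p = 0.0254), at levels near the floor of 3 counts, and the call was lost without the iPSC library labelled 65E5 (adjusted p = 0.105) or the day 14 GFP+ library labelled 65E4 (adjusted p = 0.0854). Otx2, a formative factor outside the named rule, was at 32.6, 6.1 and 27.9 CPM in iPSC, against 34.5, 37 and 34.9 CPM in day 14 GFP+ cells (log2 fold change -0.68 ± 0.38, adjusted p = 0.154); the library labelled 65E4 stood apart among the iPSC.

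**Figure D5:**
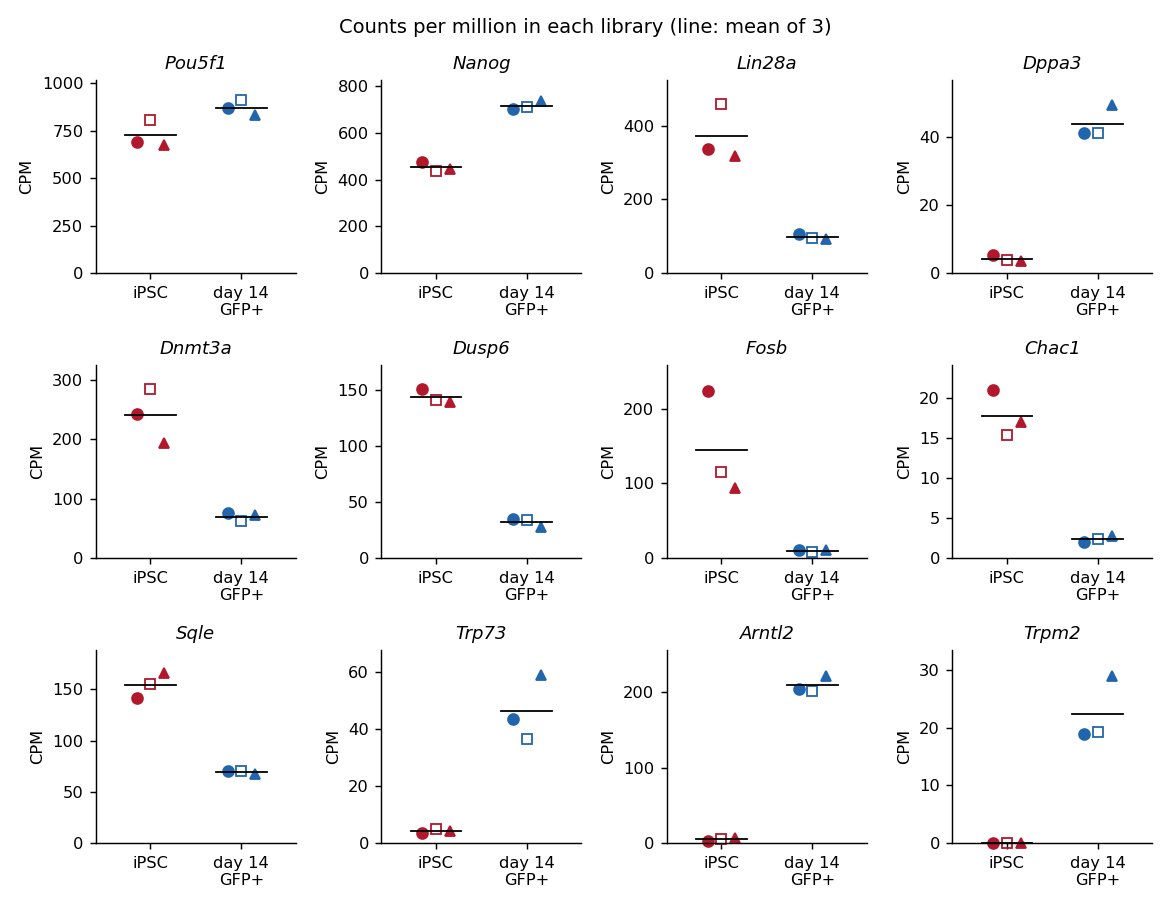
Level in each library (points, CPM) and mean of 3 (line) of 12 genes in iPSC and day 14 GFP+ cells. Lin28a, Dnmt3a, Dusp6, Fosb, Chac1 and Sqle are higher in all 3 iPSC libraries, Nanog, Dppa3, Trp73, Arntl2 and Trpm2 are lower in all 3, and Pou5f1 does not pass the test.

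Of 4 reprogramming factor genes, Klf4, Myc and Pou5f1 could be tested, and the first 2 rose. The counts per gene name do not separate an endogenous transcript from a delivered one. Klf4 was at 644, 490.0 and 617 CPM in the iPSC libraries and 430.0, 463 and 428 CPM in the day 14 GFP+ libraries (log2 fold change 0.41 ± 0.11, adjusted p = 0.00568). Myc was at 18.5, 41.4 and 22.7 CPM in the 3 iPSC clones and 9.41, 6.45 and 7.85 CPM in day 14 GFP+ cells (log2 fold change 1.82 ± 0.25, adjusted p = 1.38e-05), and it was higher still before day 14, with 147 CPM in MEF, 448 CPM at day 10 and 305 CPM in day 12 GFP+ cells.

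ERK feedback genes were higher in iPSC. Of 20 tested of 22 genes in the FGF and ERK list, 15 rose, 1 fell and 4 did not pass the test, with a median log2 fold change of 1.10 against 0.02 over all genes. Of the rises, 12 were beyond the feeder share. Spry4, a Sprouty inhibitor of receptor tyrosine kinase signalling, was at 148, 149 and 178 CPM in iPSC, against 27.8, 28.6 and 20.4 CPM in day 14 GFP+ cells (log2 fold change 2.63 ± 0.13, adjusted p = 4.77e-12). Dusp6, a phosphatase that inactivates ERK in the cytoplasm, was at 151, 141 and 139.7 CPM in the iPSC libraries and 35.3, 33.8 and 27.6 CPM in the day 14 GFP+ libraries (log2 fold change 2.16 ± 0.14, adjusted p = 1.53e-10). Dusp5, its nuclear counterpart, was at 50.6, 58.7 and 62.3 CPM in the 3 iPSC clones and 21.2, 19.3 and 17.8 CPM in day 14 GFP+ cells (log2 fold change 1.56 ± 0.14, adjusted p = 1.25e-08). In these 3 genes each iPSC library was above each day 14 GFP+ library. MEF expressed them too, at 48.3, 89.7 and 128 CPM. Not every ERK target moved this way: Etv5, the close relative of Etv4, was at 274, 289.9 and 338 CPM in iPSC, against 349, 359 and 355 CPM in day 14 GFP+ cells (log2 fold change -0.24 ± 0.09, adjusted p = 0.0311), a call that was lost when any 1 day 14 GFP+ library, or the iPSC library labelled 65E1 or 65E4, was left out (adjusted p = 0.0538 to 0.112). The ligand gene Fgf4, named here after its values were seen, was at 288, 288 and 245 CPM in the iPSC libraries and 332, 336 and 352 CPM in the day 14 GFP+ libraries (log2 fold change -0.31 ± 0.13, adjusted p = 0.0503) and did not pass the test.

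Immediate-early genes, which are switched on within minutes of growth factors or of cell handling, were higher too. Of 19 genes, 16 rose, 1 fell and 2 did not pass the test, with a median log2 fold change of 1.43 and 12 rises beyond the feeder share. Fosb, an AP-1 subunit, was at 224, 115 and 94 CPM in the 3 iPSC clones and 10.6, 8.57 and 11.3 CPM in day 14 GFP+ cells (log2 fold change 3.83 ± 0.43, adjusted p = 3.42e-06). Zfp36, a factor that destabilizes AU-rich messages, was at 62.3, 72 and 62.1 CPM in iPSC, against 18.6, 19 and 17.5 CPM in day 14 GFP+ cells (log2 fold change 1.83 ± 0.13, adjusted p = 1.01e-09). Dusp1, a phosphatase of stress kinases, was at 153, 138 and 114 CPM in the iPSC libraries and 42.4, 39.9 and 30.9 CPM in the day 14 GFP+ libraries (log2 fold change 1.84 ± 0.15, adjusted p = 9.63e-09). Maff, a small Maf factor, was at 29.5, 23.7 and 25.3 CPM in the 3 iPSC clones and 6.37, 8.57 and 6.2 CPM in day 14 GFP+ cells (log2 fold change 1.88 ± 0.16, adjusted p = 1.37e-08). None of these overlapped. Btg2, an antiproliferative gene that is also a p53 target, was the member that fell, at 46.3, 53.8 and 31.6 CPM in iPSC, against 106, 99.5 and 116 CPM in day 14 GFP+ cells (log2 fold change -1.29 ± 0.14, adjusted p = 2.8e-07). In wild-type iPSC lines of a table that was normalized separately, Fosb was at 123, 171 and 147 CPM. The sort of the day 14 cells and the dissociation and feeder depletion of the iPSC differ with the groups, and their part in these levels cannot be told apart from the stage.

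Genes of the integrated stress response were higher in iPSC, with a single exception. This pathway, which runs through translation of Atf4, induces genes for amino acid supply and one-carbon metabolism. Of its 18 genes, 17 rose and 1 did not pass the test, with a median log2 fold change of 1.31 and 15 rises beyond the feeder share. Atf4 was at 462, 413 and 348 CPM in the iPSC libraries and 216, 192 and 181 CPM in the day 14 GFP+ libraries (log2 fold change 1.05 ± 0.12, adjusted p = 4.39e-07). Chac1, which degrades glutathione, was at 20.9, 15.3 and 17 CPM in the 3 iPSC clones and 2.06, 2.34 and 2.75 CPM in day 14 GFP+ cells (log2 fold change 2.88 ± 0.18, adjusted p = 8.08e-11). Psat1, of serine synthesis, was at 618, 474 and 396 CPM in iPSC, against 167, 152 and 151 CPM in day 14 GFP+ cells (log2 fold change 1.66 ± 0.11, adjusted p = 3.13e-10). Mthfd2, a mitochondrial folate enzyme, was at 244, 158 and 138 CPM in the iPSC libraries and 50.6, 46.9 and 42.5 CPM in the day 14 GFP+ libraries (log2 fold change 1.95 ± 0.14, adjusted p = 1.19e-09). In these 4 genes every iPSC library was above every day 14 GFP+ library. For Chac1 and Psat1 the mean iPSC level lay within the range of MEF, day 10 and day 12 cells, and both sorted fractions of day 14 were below it. Chac1 was at 31.5 CPM in MEF, 10.8 CPM at day 10, 27.3 CPM in day 12 GFP+ cells and 1.81 CPM in day 14 GFP- cells. Psat1 was likewise at 581, 443, 497 and 159 CPM in these 4 groups. Ddit4 was the gene that did not pass the test, at 132, 29.3 and 39.3 CPM in the 3 iPSC clones and 80.6, 87.9 and 79.7 CPM in day 14 GFP+ cells (log2 fold change -0.31 ± 0.39, adjusted p = 0.54), with the library labelled 65E1 apart from the other iPSC.

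Promoter stretches are shown for members of the stress and immediate-early lists that rose and hold an element known from their pathway. The C/EBP-ATF response element, searched as TGATGNAA on both strands in windows of 300 bases (250 before to 50 after each RefSeq gene start), was present in 6 of 16 integrated stress response members with a promoter (37.5%), against 4.51% of all genes. The CArG box, the site of serum response factor, was present in 2 of 15 immediate-early members (13.3%), against 1.81% of all genes. The stretches below run 5′ to 3′ on the gene's strand, from RefSeq on GRCm38.p6, and the capitals mark the element. The first 4 show the C/EBP-ATF element, and Slc7a11 holds it on both strands. The last 2 show the CArG box. A match describes letters in the window, not binding. The lists hold known genes of each pathway, so a higher share than over all genes follows in part from that choice. It is not a result of these data, and the part of the elements in the rises was not tested.
Chac1 (chr2:119351019-119351098, plus strand): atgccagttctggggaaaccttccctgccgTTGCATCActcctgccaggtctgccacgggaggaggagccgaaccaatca
Nupr1 (chr7:126625531-126625610, minus strand): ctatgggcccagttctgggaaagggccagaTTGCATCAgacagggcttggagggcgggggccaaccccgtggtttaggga
Vldlr (chr19:27216790-27216869, plus strand): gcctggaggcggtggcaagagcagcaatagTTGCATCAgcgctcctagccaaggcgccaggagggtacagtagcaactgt
Slc7a11 (chr3:50443630-50443709, minus strand): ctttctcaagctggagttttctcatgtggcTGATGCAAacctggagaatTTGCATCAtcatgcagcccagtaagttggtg
Zfp36 (chr7:28379237-28379316, minus strand): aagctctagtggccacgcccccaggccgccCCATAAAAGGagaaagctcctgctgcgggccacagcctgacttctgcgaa
Egr2 (chr10:67537464-67537543, plus strand): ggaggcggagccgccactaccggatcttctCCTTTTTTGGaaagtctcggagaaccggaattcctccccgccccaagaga

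The genes of these windows rose, with levels that differed widely. Chac1 and Zfp36 are given above. Nupr1, a stress-induced chromatin factor, was at 69.4, 49.6 and 18.1 CPM in iPSC, against 8.13, 7.44 and 6.91 CPM in day 14 GFP+ cells (log2 fold change 2.61 ± 0.36, adjusted p = 1.77e-05). Slc7a11, the cystine importer, was at 3.61, 2.23 and 1.18 CPM in the iPSC libraries and 0.686, 0.708 and 0.393 CPM in the day 14 GFP+ libraries (log2 fold change 1.94 ± 0.57, adjusted p = 0.00904). Vldlr, a lipoprotein receptor, was at 18.3, 4.62 and 6.02 CPM in the 3 iPSC clones and 4.02, 2.55 and 2.75 CPM in day 14 GFP+ cells (log2 fold change 1.64 ± 0.39, adjusted p = 0.00219). For all 3 the library labelled 65E1 was the highest of the iPSC. Egr2, a zinc finger immediate-early factor, was at 15, 9.47 and 8.07 CPM in iPSC, against 2.94, 1.42 and 1.18 CPM in day 14 GFP+ cells (log2 fold change 2.59 ± 0.36, adjusted p = 7.01e-06).

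Cholesterol synthesis genes, targets of the SREBP factors, were higher as a list. Of 24 genes, 18 rose, 1 fell and 5 did not pass the test, with a median log2 fold change of 0.76. Of the rises, 17 were beyond the feeder share. Sqle, squalene epoxidase, was at 141, 156 and 166 CPM in the iPSC libraries and 70.8, 70.5 and 67.1 CPM in the day 14 GFP+ libraries (log2 fold change 1.15 ± 0.08, adjusted p = 4.15e-10). Msmo1, a sterol demethylation enzyme, was at 99.3, 107 and 122 CPM in the 3 iPSC clones and 53.5, 55.4 and 56.9 CPM in day 14 GFP+ cells (log2 fold change 0.98 ± 0.09, adjusted p = 5.47e-08). Lss, lanosterol synthase, was at 69.7, 78.3 and 96.2 CPM in iPSC, against 47.6, 46 and 46.6 CPM in day 14 GFP+ cells (log2 fold change 0.80 ± 0.10, adjusted p = 1.02e-06). The differences were moderate and none of these 3 overlapped. Mvk, mevalonate kinase, was the gene that fell, at 19.4, 18.5 and 16.8 CPM in the iPSC libraries and 22.1, 24.5 and 25.4 CPM in the day 14 GFP+ libraries (log2 fold change -0.40 ± 0.13, adjusted p = 0.0156). The call was lost without the library labelled 65E5 of iPSC (adjusted p = 0.0517) or of day 14 GFP+ cells (adjusted p = 0.061). The sterol regulatory element TCACNCCAC was present in 1 of 16 members with a promoter (6.25%), Hmgcs1, against 1.44% of all genes. This list likewise holds known genes of its pathway, and the figure rests on 1 gene.

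Genes of the p53 and senescence list, which holds p53 targets, p53 itself, its relative Trp73 and cell cycle inhibitors, were mostly lower in iPSC, while Trp53 was not detectably different. Of 20 genes, 15 fell, 2 rose and 3 did not pass the test, with a median log2 fold change of -0.75. Trp53, named after its values were seen, was at 346, 349.8 and 395 CPM in the 3 iPSC clones and 365, 370.0 and 383 CPM in day 14 GFP+ cells (log2 fold change -0.04 ± 0.10, adjusted p = 0.783). Trp73, the p53 relative, was at 3.68, 5.13 and 4.22 CPM in iPSC, against 43.4, 36.6 and 58.8 CPM in day 14 GFP+ cells (log2 fold change -3.40 ± 0.20, adjusted p = 5.3e-11); it was at 13.3 CPM at day 10 and 27.7 CPM in day 12 GFP+ cells. Trp53inp1, a p53-induced autophagy and stress gene, was at 214, 190.1 and 204 CPM in the iPSC libraries and 526, 486 and 579 CPM in the day 14 GFP+ libraries (log2 fold change -1.39 ± 0.10, adjusted p = 1.71e-09). Zmat3, an RNA-binding target, was at 95.3, 91.8 and 95.7 CPM in the 3 iPSC clones and 202, 197 and 232 CPM in day 14 GFP+ cells (log2 fold change -1.16 ± 0.09, adjusted p = 2.82e-09). Eda2r, a death receptor, was at 35.9, 45.2 and 38.7 CPM in iPSC, against 88.2, 82.7 and 95.3 CPM in day 14 GFP+ cells (log2 fold change -1.15 ± 0.09, adjusted p = 6.19e-09). In these 4 genes the groups did not overlap. Of the 2 rises, Sesn2 belongs to the stress response list as well, at 258, 202 and 187 CPM in the iPSC libraries and 172, 171 and 177 CPM in the day 14 GFP+ libraries (log2 fold change 0.31 ± 0.10, adjusted p = 0.0163). The Sesn2 call was lost without the iPSC library labelled 65E1 (adjusted p = 0.197) or the day 14 GFP+ library labelled 65E4 (adjusted p = 0.0595). The other was Cdkn2b, at 7.78, 15.1 and 4.59 CPM in the 3 iPSC clones and 4.9, 5.24 and 5.73 CPM in day 14 GFP+ cells (log2 fold change 0.80 ± 0.28, adjusted p = 0.0256). Its libraries overlapped, and it was at 38.6 CPM in MEF.

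Epithelial genes were lower, although E-cadherin was close in level. Of 27 genes, 20 fell, 1 rose and 6 did not pass the test, with a median log2 fold change of -1.16. Elf3, an epithelial Ets factor, was at 25.8, 21.1 and 25.5 CPM in iPSC, against 95.4, 109 and 102 CPM in day 14 GFP+ cells (log2 fold change -2.08 ± 0.11, adjusted p = 7.71e-11). St14, the membrane protease matriptase, was at 75, 53.2 and 64.1 CPM in the iPSC libraries and 184, 201 and 217 CPM in the day 14 GFP+ libraries (log2 fold change -1.65 ± 0.11, adjusted p = 3.78e-10). Cldn3, a tight junction claudin, was at 0.919, 1.2 and 0.745 CPM in the 3 iPSC clones and 5.29, 6.94 and 7.77 CPM in day 14 GFP+ cells (log2 fold change -2.79 ± 0.22, adjusted p = 4.21e-09). Esrp1, an epithelial splicing factor, was at 29.4, 29 and 24.3 CPM in iPSC, against 60.4, 59.6 and 67.5 CPM in day 14 GFP+ cells (log2 fold change -1.18 ± 0.09, adjusted p = 1.63e-09). Each of these was lower in all 3 iPSC libraries than in any day 14 GFP+ library. Cdh1 (E-cadherin) was at 419, 443 and 438 CPM in the iPSC libraries and 459, 459.8 and 498 CPM in the day 14 GFP+ libraries (log2 fold change -0.12 ± 0.10, adjusted p = 0.315), a small difference without overlap that did not pass the test. Marveld2, of tricellular junctions, was the member that rose, at 3.75, 3.42 and 6.95 CPM in the 3 iPSC clones and 1.08, 2.48 and 3.06 CPM in day 14 GFP+ cells (log2 fold change 1.06 ± 0.29, adjusted p = 0.0051), and without the iPSC library labelled 65E5 its adjusted p was 0.0647. The keratinocyte list shares genes with this one. Perp, a p53 target of desmosomes, was at 16.6, 29.1 and 23.7 CPM in iPSC, against 86.5, 73 and 95.4 CPM in day 14 GFP+ cells (log2 fold change -1.87 ± 0.20, adjusted p = 7.25e-07). Itgb4, an integrin of hemidesmosomes, was at 12.3, 8.5 and 12.9 CPM in the iPSC libraries and 37.5, 34.7 and 38.6 CPM in the day 14 GFP+ libraries (log2 fold change -1.72 ± 0.13, adjusted p = 2.2e-09). The keratinocyte list itself had 3 rises and 2 falls among 10 tested of 14 genes.

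Trophectoderm and placenta genes fell in 10 of 16 tested of 18 genes, with 1 rise and a median log2 fold change of -0.89; with only the 6 libraries of the comparison in the fit, 5 fell. Gata2, a trophoblast factor, was at 1.34, 1.77 and 1.86 CPM in the 3 iPSC clones and 3.72, 8.07 and 5.73 CPM in day 14 GFP+ cells (log2 fold change -1.82 ± 0.26, adjusted p = 7.38e-06). Rhox6, a placental homeobox gene, was at 1.63, 1.43 and 2.79 CPM in iPSC, against 5.1, 5.31 and 3.93 CPM in day 14 GFP+ cells (log2 fold change -1.29 ± 0.24, adjusted p = 0.000239). Tead4 was at 81.7, 80.1 and 83.8 CPM in the iPSC libraries and 106, 109 and 97.8 CPM in the day 14 GFP+ libraries (log2 fold change -0.35 ± 0.07, adjusted p = 0.000469). Plac8 was the gene that rose, at 3.61, 6.9 and 6.95 CPM in the 3 iPSC clones and 1.47, 1.49 and 1.1 CPM in day 14 GFP+ cells (log2 fold change 2.11 ± 0.37, adjusted p = 9.92e-05).

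Germline genes rose more often than all tested genes (24.3%) and fell about as often as these (22.5%). Of 31 tested of 34 genes, 12 rose, 7 fell and 12 did not pass the test, and the 12 rises were beyond the feeder share. The tested genes of this list summed to 20.6 to 24.5 CPM in MEF, so small rises pass that mark. Stra8, the retinoic acid-induced gatekeeper of meiosis, was at 7.21, 4.74 and 11.9 CPM in iPSC, against 0.686, 0.637 and 0.393 CPM in day 14 GFP+ cells (log2 fold change 3.79 ± 0.45, adjusted p = 1.8e-06). In MEF, Stra8 was at 0 CPM, and it passed the filter on low counts through its iPSC levels. Its call, and its place among the 12 rises, are thus not independent of that filter. Ddx4 (Vasa), a germ-cell RNA helicase, was at 23.6, 25.7 and 34.5 CPM in the iPSC libraries and 7.06, 7.72 and 7.77 CPM in the day 14 GFP+ libraries (log2 fold change 1.89 ± 0.21, adjusted p = 3.85e-07). Mael, of the piRNA pathway, was at 14.6, 16.7 and 15.7 CPM in the 3 iPSC clones and 5.88, 4.18 and 3.85 CPM in day 14 GFP+ cells (log2 fold change 1.76 ± 0.23, adjusted p = 6.42e-06). Rec8, the meiotic cohesin, was lower, at 6.01, 3.19 and 4.91 CPM in iPSC, against 15.3, 15.6 and 18.6 CPM in day 14 GFP+ cells (log2 fold change -1.82 ± 0.18, adjusted p = 1.01e-07). In these genes the groups did not overlap. Dazl, an RNA-binding germ-cell gene, was at 21.6, 41.5 and 68 CPM in the iPSC libraries and 45.2, 43.7 and 38.2 CPM in the day 14 GFP+ libraries (log2 fold change 0.05 ± 0.26, adjusted p = 0.897), with the iPSC libraries spread on both sides of the day 14 GFP+ range. The 2-cell-like list had 5 tested of 14 genes, and these passed the filter through their iPSC levels, so their count is not a result. Zscan4a, of a family of near-identical copies whose reads the counting may split, was at 1.91, 1.71 and 1.61 CPM in the 3 iPSC clones and 0, 0 and 0.157 CPM in day 14 GFP+ cells.

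Among DNA methylation genes the de novo enzyme Dnmt3a was higher in iPSC, while the list as a whole was called about as often as all genes. Of 20 tested of 21 genes, 5 rose, 6 fell and 9 did not pass the test, where 24.3% of all tested genes rose and 22.5% fell. Dnmt3a was at 243, 284 and 193 CPM in iPSC, against 75.7, 62.4 and 72.5 CPM in day 14 GFP+ cells (log2 fold change 1.78 ± 0.12, adjusted p = 2.31e-10). Dnmt3b was at 287, 327 and 283 CPM in the iPSC libraries and 289, 236 and 265 CPM in the day 14 GFP+ libraries (log2 fold change 0.18 ± 0.09, adjusted p = 0.103). Its cofactor Dnmt3l was at 211, 428 and 318 CPM in the 3 iPSC clones and 228, 219 and 248 CPM in day 14 GFP+ cells (log2 fold change 0.46 ± 0.21, adjusted p = 0.0798); both overlapped and missed the threshold. Without the iPSC library labelled 65E1 Dnmt3l passed (adjusted p = 0.00554), and without the day 14 GFP+ library labelled 65E1 Dnmt3b did (adjusted p = 0.0484). Tet1, the dioxygenase behind the mCherry reporter, was at 1000, 833 and 1242 CPM in iPSC, against 646, 634 and 735 CPM in day 14 GFP+ cells (log2 fold change 0.61 ± 0.13, adjusted p = 0.000629). Tet2 was at 265, 325 and 292 CPM in the iPSC libraries and 334, 322 and 365 CPM in the day 14 GFP+ libraries (log2 fold change -0.21 ± 0.11, adjusted p = 0.112), with an adjusted p of 0.0482 without the iPSC library labelled 65E4. Tet3 was at 23.1, 28.6 and 23.8 CPM in the 3 iPSC clones and 10.7, 11.6 and 10.6 CPM in day 14 GFP+ cells (log2 fold change 1.20 ± 0.13, adjusted p = 3.43e-07), but was at 127 CPM in MEF. Apobec1, a cytidine deaminase, was at 10.2, 6.33 and 6.89 CPM in iPSC, against 28.3, 26.6 and 33.9 CPM in day 14 GFP+ cells (log2 fold change -1.93 ± 0.15, adjusted p = 1.99e-09). The repair glycosylase Nthl1 was at 11.9, 8.96 and 9.81 CPM in the iPSC libraries and 19.3, 20.8 and 23.1 CPM in the day 14 GFP+ libraries (log2 fold change -1.05 ± 0.12, adjusted p = 3.54e-07). Zfp57, which keeps methylation at imprinted regions and belongs to the H3K9 list, was at 328, 418 and 392 CPM in the 3 iPSC clones and 551, 545 and 522 CPM in day 14 GFP+ cells (log2 fold change -0.51 ± 0.08, adjusted p = 2.76e-05).

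Among imprinted genes outside the Dlk1-Dio3 locus, 17 of 30 tested of 34 genes rose and 6 fell, and 9 of the rises were beyond the feeder share. H19, a noncoding RNA abundant in embryonic fibroblasts, was at 212, 435 and 107 CPM in iPSC, against 105, 84.8 and 85.5 CPM in day 14 GFP+ cells (log2 fold change 1.45 ± 0.35, adjusted p = 0.00332). MEF held 5990 CPM of H19, and the library labelled 65E4 was again the highest. Without it the log2 fold change of H19 was 0.79 (adjusted p = 0.0185). With only the 6 libraries in the fit its adjusted p was 0.0642. Impact was at 139, 126 and 116 CPM in the iPSC libraries and 65.4, 64.3 and 59.3 CPM in the day 14 GFP+ libraries (log2 fold change 1.01 ± 0.08, adjusted p = 6.24e-09). Phlda2, a growth-restraining placental gene, was at 25, 42.1 and 55.1 CPM in the 3 iPSC clones and 15.7, 17.6 and 12.2 CPM in day 14 GFP+ cells (log2 fold change 1.43 ± 0.20, adjusted p = 7.28e-06). In MEF, Phlda2 was at 0.757 CPM. Inpp5f was at 7.99, 6.62 and 5.9 CPM in iPSC, against 14.5, 14.7 and 16.6 CPM in day 14 GFP+ cells (log2 fold change -1.16 ± 0.12, adjusted p = 2.25e-07). Usp29, of the Peg3 domain, was at 6.29, 5.02 and 3.91 CPM in the iPSC libraries and 14.9, 11.3 and 10.1 CPM in the day 14 GFP+ libraries (log2 fold change -1.25 ± 0.18, adjusted p = 8.32e-06). Neither of the last 2 overlapped between the groups.

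The Dlk1-Dio3 locus on chromosome 12, whose silencing in some iPSC clones is known from other work, separated 1 clone from the others. Of its 6 genes, 2 rose and 4 did not pass the test. The maternal noncoding RNAs Meg3, Rian and Mirg summed to 65.1, 443 and 585 CPM in iPSC, against 650, 620 and 554 CPM in day 14 GFP+ cells. The library labelled 65E1 held 12.7% of the mean of the other iPSC libraries. Meg3 alone was at 41.2, 248 and 288 CPM in the 3 iPSC clones and 366, 352 and 308 CPM in day 14 GFP+ cells (log2 fold change -0.83 ± 0.42, adjusted p = 0.122). Without that library its log2 fold change was -0.37 with an adjusted p of 0.0316, and without the iPSC library labelled 65E5 it was -1.26 with an adjusted p of 0.0391. Of the paternal genes, 2 of 3 rose: Dlk1 was at 10.4, 23.6 and 9.56 CPM in iPSC, against 1.47, 2.27 and 2.12 CPM in day 14 GFP+ cells (log2 fold change 2.87 ± 0.38, adjusted p = 1.29e-05) and Dio3 at 1.49, 6.96 and 1.61 CPM in the iPSC libraries and 1.18, 1.35 and 0.314 CPM in the day 14 GFP+ libraries (log2 fold change 1.84 ± 0.56, adjusted p = 0.0103). Without the iPSC library labelled 65E4 the log2 fold change of Dio3 was 0.71 (adjusted p = 0.251), and without the day 14 GFP+ library labelled 65E5 it was 1.41 (adjusted p = 0.0615). The third, Rtl1, did not pass the test, at 0, 0.057 and 0.0621 CPM in the 3 iPSC clones and 0, 0.567 and 0.236 CPM in day 14 GFP+ cells (adjusted p = 0.0638), with levels near or under the floor of 3 counts in most libraries. The MEF level of Dlk1 was 603 CPM, and 1 of these 2 rises was beyond the feeder share.

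Xist, the noncoding RNA that coats an inactive X chromosome, was higher in iPSC labelled male, at 28.2, 57.7 and 25.4 CPM in iPSC, against 3.43, 1.2 and 2.04 CPM in day 14 GFP+ cells (log2 fold change 4.10 ± 0.38, adjusted p = 4.46e-08). The library labelled 65E4 was the highest of the iPSC libraries for Xist, as for the feeder share (1.75%, 6.96% and 2.42%). The order of those labelled 65E1 and 65E5 was not the same for Xist and that share. Without the library labelled 65E4 the log2 fold change of Xist was 3.62. MEF held 0.151 CPM of Xist, but their Y-linked sums were 272 to 283 CPM, and the level in the feeders is not known here. Whether Xist RNA came from the iPSC or from feeders was not tested. Its antisense partner Tsix was at 7.71, 8.5 and 8.32 CPM in the iPSC libraries and 1.86, 2.34 and 0.471 CPM in the day 14 GFP+ libraries (log2 fold change 2.38 ± 0.43, adjusted p = 0.000155), but 93.9% of its span overlaps other genes of the same strand, so its count is uncertain. In wild-type iPSC lines of the separately normalized table Xist was at 42.4, 27.1 and 31 CPM. The Y-linked Usp9y was at 0.636, 0.456 and 0 CPM in the 3 iPSC clones and 13.7, 16.5 and 17.3 CPM in day 14 GFP+ cells (log2 fold change -5.44 ± 0.47, adjusted p = 1.55e-08), and at 0.0782 CPM in MEF; its log2 fold change was -6.03 without the iPSC library labelled 65E1. In the list of 7 X- and Y-linked markers these 3 passed the test.

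Glycolysis and hypoxia genes were on balance lower in iPSC than in day 14 GFP+ cells. Of 23 glycolysis and lactate genes, 13 fell, 4 rose and 6 did not pass the test, with a median log2 fold change of -0.43. Pfkl, a phosphofructokinase, was at 175, 91.6 and 146 CPM in iPSC, against 320.5, 400.0 and 401 CPM in day 14 GFP+ cells (log2 fold change -1.44 ± 0.19, adjusted p = 6.29e-06). Its paralog Pfkm was at 86.1, 79.2 and 67.4 CPM in the iPSC libraries and 129, 152 and 148 CPM in the day 14 GFP+ libraries (log2 fold change -0.89 ± 0.10, adjusted p = 5.92e-07). Tpi1, triose phosphate isomerase, was at 206, 122 and 148 CPM in the 3 iPSC clones and 305, 376 and 349 CPM in day 14 GFP+ cells (log2 fold change -1.11 ± 0.16, adjusted p = 1.08e-05). In these the groups did not overlap, and the library labelled 65E4 was low for Pfkl and Tpi1. In day 12 GFP+ and day 14 GFP- cells Pfkl was at 178 and 330 CPM and Tpi1 at 185 and 282 CPM. Pfkm was at 123 and 99.6 CPM there. Slc16a1, a lactate transporter, rose, at 257, 226 and 235 CPM in iPSC, against 165, 167 and 151 CPM in day 14 GFP+ cells (log2 fold change 0.57 ± 0.08, adjusted p = 5.81e-06). Of 18 hypoxia genes, 8 fell, 1 rose and 9 did not pass the test. Ndrg1 was at 26.7, 14.4 and 23.2 CPM in the iPSC libraries and 79.2, 108 and 90.9 CPM in the day 14 GFP+ libraries (log2 fold change -2.12 ± 0.19, adjusted p = 2.86e-08). Ankrd37 was at 2.76, 1.31 and 2.86 CPM in the 3 iPSC clones and 11.9, 16.7 and 14.1 CPM in day 14 GFP+ cells (log2 fold change -2.63 ± 0.24, adjusted p = 3.32e-08). Both are induced by HIF-1 and both were separated between the groups. Mxi1, a Myc antagonist, and P4ha1, a collagen prolyl hydroxylase, fell less, with log2 fold changes of -0.85 ± 0.09 and -0.84 ± 0.10. In day 12 GFP+ and day 14 GFP- cells Ndrg1 was at 30.8 and 84 CPM and Ankrd37 at 2.48 and 9.63 CPM. P4ha1 was at 38.6 and 75 CPM in these groups, and Mxi1 at 61.4 and 45 CPM. Pdk1, which limits entry of pyruvate into mitochondria, rose, at 262, 189 and 242 CPM in iPSC, against 163, 195 and 171 CPM in day 14 GFP+ cells (log2 fold change 0.39 ± 0.10, adjusted p = 0.00251), with overlapping libraries. The nuclear respiratory chain list had 10 rises and 3 falls in 27 tested of 28 genes, at small size; Ndufs1 was at 166, 156 and 181 CPM in the iPSC libraries and 128, 130.5 and 137 CPM in the day 14 GFP+ libraries (log2 fold change 0.35 ± 0.06, adjusted p = 0.000142). With library totals as the only scaling, 4 of these genes rose. Of 9 tested of 13 mitochondrially encoded genes, 0 passed edgeR's quasi-likelihood test and 0 passed DESeq2's; 2 had an unadjusted p under 0.05, mt-Atp6 upwards and mt-Co2 downwards. With only the 6 libraries of the comparison in the fit, 5 passed as lower.

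Mitotic genes were lower, while few replication genes differed. Of 22 mitosis and spindle genes, 11 fell and 11 did not pass the test, and without the iPSC library labelled 65E4 7 fell. Aurkb, a mitotic kinase, was at 64.3, 64.8 and 75.9 CPM in the 3 iPSC clones and 120.3, 126 and 137 CPM in day 14 GFP+ cells (log2 fold change -0.90 ± 0.10, adjusted p = 2.52e-07). Nusap1, of spindle microtubules, was at 81.4, 70.8 and 85.7 CPM in iPSC, against 148, 136 and 153 CPM in day 14 GFP+ cells (log2 fold change -0.88 ± 0.11, adjusted p = 1.73e-06). Ube2c, of the anaphase-promoting complex, was at 118, 131 and 178 CPM in the iPSC libraries and 209, 219 and 220.5 CPM in the day 14 GFP+ libraries (log2 fold change -0.60 ± 0.10, adjusted p = 6.29e-05). These 3 did not overlap. Of 25 tested of 26 replication genes, 3 rose and 2 fell. Cdc6, a licensing factor, was at 95.9, 98.6 and 112 CPM in the 3 iPSC clones and 62.3, 60.6 and 61.3 CPM in day 14 GFP+ cells (log2 fold change 0.74 ± 0.07, adjusted p = 4.81e-08). The clamp Pcna was at 294, 278 and 315 CPM in iPSC, against 208, 212 and 197 CPM in day 14 GFP+ cells (log2 fold change 0.52 ± 0.06, adjusted p = 1.09e-06). Both were higher in every iPSC library.

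Interferon and MHC class I genes fell in 12 of 24 tested of 25 genes, with 2 rises and a median log2 fold change of -0.85. Ifitm3, a membrane antiviral factor also used as an early germ-cell marker, was at 144, 138 and 108 CPM in the iPSC libraries and 277, 270.1 and 274 CPM in the day 14 GFP+ libraries (log2 fold change -1.07 ± 0.10, adjusted p = 4.46e-08). Ifitm1 was at 41.8, 24.2 and 25.1 CPM in the 3 iPSC clones and 77.2, 93.2 and 95.9 CPM in day 14 GFP+ cells (log2 fold change -1.55 ± 0.25, adjusted p = 6.93e-05). Stat2 and Irf9, parts of the interferon-stimulated transcription complex, had log2 fold changes of -0.67 ± 0.08 and -0.80 ± 0.13. H2-K1, a class I heavy chain, rose, at 15.3, 24.2 and 16.8 CPM in iPSC, against 11.5, 8.57 and 7.62 CPM in day 14 GFP+ cells (log2 fold change 1.04 ± 0.20, adjusted p = 0.000294).

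Genes of the TGF-beta, activin and BMP list rose in 13 of 25 cases and fell in 2, but only 2 of the rises were beyond the feeder share. Grem1, a BMP antagonist, was at 11.7, 33.3 and 10.6 CPM in the iPSC libraries and 0.784, 0.496 and 0.628 CPM in the day 14 GFP+ libraries (log2 fold change 4.89 ± 0.56, adjusted p = 2.45e-06). MEF held 134 CPM of Grem1. The library labelled 65E4 was the highest, and without it the log2 fold change of Grem1 was 4.14. Smad9 fell, with a log2 fold change of -2.26 ± 0.51 (adjusted p = 0.00116). The WNT list was called about as often as all tested genes (24.3% higher, 22.5% lower), with 5 rises and 5 falls in 22 tested of 24 genes. It had 2 to 6 falls under the alternatives tried. Fzd7, a WNT receptor, was at 276, 201 and 193 CPM in the 3 iPSC clones and 108, 105 and 86.6 CPM in day 14 GFP+ cells (log2 fold change 1.16 ± 0.11, adjusted p = 8.24e-08). Nkd2, a WNT inhibitor, was at 3.75, 2.62 and 2.79 CPM in iPSC, against 0.98, 0.921 and 0.628 CPM in day 14 GFP+ cells (log2 fold change 1.85 ± 0.27, adjusted p = 1.32e-05).

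Of the other fixed lists, heat shock chaperones had 6 rises and 3 falls in 16 genes. Hspd1, the mitochondrial chaperonin, was at 893, 1039 and 1062 CPM in the iPSC libraries and 598, 585 and 555 CPM in the day 14 GFP+ libraries (log2 fold change 0.79 ± 0.07, adjusted p = 2.5e-08). The co-chaperone Bag3 was lower, at 21.3, 20.4 and 15 CPM in the 3 iPSC clones and 34.8, 39.7 and 39.4 CPM in day 14 GFP+ cells (log2 fold change -1.01 ± 0.11, adjusted p = 3.96e-07). Polycomb repressive complex 2 had 3 rises and 3 falls in 11 genes, near the shares over all tested genes (24.3% higher, 22.5% lower). Rbbp7, a histone-binding subunit, was at 349.7, 338 and 325 CPM in iPSC, against 222, 207 and 204 CPM in day 14 GFP+ cells (log2 fold change 0.68 ± 0.06, adjusted p = 3e-08). The accessory factor Phf1 was lower, at 7.07, 5.88 and 6.83 CPM in the iPSC libraries and 18.5, 16.4 and 15.5 CPM in the day 14 GFP+ libraries (log2 fold change -1.35 ± 0.14, adjusted p = 1.82e-07). The H3K9 methylation list had 4 rises and 5 falls in 14 genes, to be set against the same shares. Kdm4b, an H3K9 demethylase, was at 47.2, 31.9 and 47.4 CPM in the 3 iPSC clones and 89.9, 118 and 107 CPM in day 14 GFP+ cells (log2 fold change -1.32 ± 0.14, adjusted p = 3.8e-07).

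Markers of other cell types were low in both groups. The summed level of 7 leukocyte markers was 8.39 to 9.05 CPM in iPSC and 17.7 to 20.8 CPM in day 14 GFP+ cells, and that of 6 trophectoderm markers 6.72 to 9.70 CPM in iPSC, with Elf5 at 0, and 15.7 to 17.4 CPM in day 14 GFP+ cells. For 4 primitive endoderm markers it was 4.96 to 10.5 CPM in iPSC and 3.33 to 5.95 CPM in day 14 GFP+ cells. Of 3 neural markers only Pax6 could be read, at 0.799 to 1.49 CPM in iPSC and 1.81 to 3.92 CPM in day 14 GFP+ cells. Sox1 and Neurod1 lie wholly inside other genes of the same strand, as Sox2 does, so their counts of 0 say nothing about their level. Among these only the primitive endoderm values overlapped. The 3 muscle markers summed to 0.778 to 5.36 CPM in iPSC and 0.567 to 0.980 CPM in day 14 GFP+ cells, with Myod1 at 0 in the day 14 cells. Of 15 tested of 16 leukocyte genes, 6 rose and 1 fell, with 1 rise beyond the feeder share, and without the iPSC library labelled 65E4 2 rose. Lyz2, of macrophages, was at 1.77, 4.79 and 2.3 CPM in iPSC, against 0.686, 0.283 and 0.236 CPM in day 14 GFP+ cells (log2 fold change 2.95 ± 0.58, adjusted p = 0.000366), with 29.1 CPM in MEF, and Cd68 was lower, at 7.92, 6.05 and 7.51 CPM in the iPSC libraries and 16.7, 20.1 and 18.9 CPM in the day 14 GFP+ libraries (log2 fold change -1.38 ± 0.14, adjusted p = 1.36e-07). Cd68 made up most of the summed leukocyte level in both groups. Of the 7 markers in that sum 2 rose and 1 fell. Of 12 tested of 19 endoderm genes, 5 rose; Sox7 was at 2.97, 2.17 and 1.99 CPM in the 3 iPSC clones and 0.686, 0.496 and 0.864 CPM in day 14 GFP+ cells (log2 fold change 1.79 ± 0.43, adjusted p = 0.00179). Of 7 tested of 13 mesoderm genes, 2 fell, and Gsc, an organizer gene, was at 0.141, 0.285 and 0.31 CPM in iPSC, against 1.37, 2.2 and 1.89 CPM in day 14 GFP+ cells (log2 fold change -2.83 ± 0.49, adjusted p = 7.45e-05). Of 10 tested of 17 neural genes, 2 rose and 3 fell, and Nefm, a neurofilament, was at 1.91, 4.91 and 7.26 CPM in the iPSC libraries and 22.1, 15.9 and 15.8 CPM in the day 14 GFP+ libraries (log2 fold change -1.92 ± 0.33, adjusted p = 8.27e-05). Of 15 tested of 16 muscle genes, 3 rose and 3 fell, with Des (desmin) at 10.4, 7.36 and 8.82 CPM in the 3 iPSC clones and 23.2, 24.3 and 29.7 CPM in day 14 GFP+ cells (log2 fold change -1.55 ± 0.15, adjusted p = 5.22e-08). Of 8 tested of 13 endothelial and blood genes, 1 rose and 2 fell. Eng, a TGF-beta co-receptor, was at 23.3, 24.7 and 29.2 CPM in iPSC, against 77.3, 73.3 and 92.4 CPM in day 14 GFP+ cells (log2 fold change -1.65 ± 0.16, adjusted p = 4.83e-08). Flt1, a VEGF receptor, was at 6.93, 30.9 and 13.2 CPM in the iPSC libraries and 3.43, 2.55 and 3.22 CPM in the day 14 GFP+ libraries (log2 fold change 2.50 ± 0.45, adjusted p = 0.000308). In MEF, Flt1 was at 315 CPM, and without the iPSC library labelled 65E4 its log2 fold change was 1.74.

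Among all genes named by size of change, the 12 largest rises were mostly fibroblast-expressed: 7 of them, with Il1rl1, Inhba, Grem1, Ptgs2, Fgf2 and Plau among them, were within the feeder share. Il1rl1, the IL-33 receptor, at chr1:40429570-40465415 (mm10, as are the coordinates below), was at 22.6, 95.5 and 34.4 CPM in the 3 iPSC clones and 1.08, 0.0708 and 0.628 CPM in day 14 GFP+ cells (log2 fold change 6.54 ± 0.66, adjusted p = 1.06e-06). MEF held 309.5 CPM of Il1rl1. Inhba, a subunit of activin A, at chr13:16011851-16027211, was at 4.95, 46.1 and 16.4 CPM in iPSC, against 0.49, 0.425 and 0.55 CPM in day 14 GFP+ cells (log2 fold change 5.53 ± 0.79, adjusted p = 3.98e-05). In MEF, Inhba was at 470.1 CPM. The library labelled 65E4 was the highest iPSC library in both, and without it the log2 fold change was 5.69 for Il1rl1 and 4.45 for Inhba. That of Il1rl1 was 7.21 without the day 14 GFP+ library labelled 65E1 and 5.91 without that labelled 65E4. The other 5 were Xist and Fosb, given above, and Lrp2, Ereg and Ccl2. Lrp2 (megalin), an endocytic receptor at chr2:69424340-69586065, was at 111, 129 and 117 CPM in the iPSC libraries and 11.3, 6.94 and 7.93 CPM in the day 14 GFP+ libraries (log2 fold change 3.79 ± 0.21, adjusted p = 3.89e-11). MEF held 45.9 CPM of Lrp2, and the clones were close to each other. Ereg (epiregulin), an EGF receptor ligand at chr5:91074622-91093646, was at 15.2, 44.8 and 17.5 CPM in the 3 iPSC clones and 0.784, 0.496 and 0.314 CPM in day 14 GFP+ cells (log2 fold change 5.63 ± 0.56, adjusted p = 2.83e-07). In MEF, Ereg was at 42.2 CPM. Ccl2, a chemokine, was at 13.2, 44.4 and 16.2 CPM in iPSC, against 3.04, 1.84 and 1.89 CPM in day 14 GFP+ cells (log2 fold change 3.48 ± 0.43, adjusted p = 4.33e-06). In Ereg and Ccl2 the library labelled 65E4 was again the highest, and without it the log2 fold change was 4.96 for Ereg and 2.73 for Ccl2. Fgf2 shares most of its span with another gene of the same strand, so its count is uncertain.

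The 12 largest falls were of genes at no more than 7.64 CPM in any iPSC library and at 10.1 CPM or more in every day 14 GFP+ library. Trpm2, a calcium channel gated by ADP-ribose, at chr10:77907722-77970563, was at 0, 0 and 0 CPM in the iPSC libraries and 18.9, 19.2 and 28.9 CPM in the day 14 GFP+ libraries, at least 118-fold lower in iPSC at a floor of 3 counts per library. Clec2g, a C-type lectin-related gene at chr6:128934381-128984707, was at 0, 0.114 and 0 CPM in the 3 iPSC clones and 35.9, 37.5 and 38.8 CPM in day 14 GFP+ cells (adjusted p = 9.33e-14). Its 2 counts in iPSC, against 1389 in day 14 GFP+ cells, make it 896-fold lower, with a 95% exact (Clopper-Pearson) counting interval of 247 to 7400. Its neighbour Clec2i, at chr6:128887588-128898167, was at 0.424, 0.228 and 0.186 CPM in iPSC, against 49.5, 43.3 and 51.1 CPM in day 14 GFP+ cells (log2 fold change -7.42 ± 0.27, adjusted p = 9.33e-14). Clec2f was at 0.0707, 0 and 0 CPM in the iPSC libraries and 4.9, 3.33 and 7.85 CPM in the day 14 GFP+ libraries (adjusted p = 4.19e-08), which is 1 count against 197, 254-fold lower with an interval of 45.1 to 10100. Clec2d of the same family did not pass the test (log2 fold change -0.28, adjusted p = 0.598). Clec2d and Clec2f were named after their values were seen, and reads of near-identical copies may be split between family members. Ceacam2, a cell adhesion gene at chr7:25516042-25539857, was at 0, 0.114 and 0 CPM in the 3 iPSC clones and 10.1, 13.5 and 15.7 CPM in day 14 GFP+ cells (adjusted p = 2.77e-10), which is 2 counts against 494, 318-fold lower with an interval of 87.7 to 2640.

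Arntl2, a paralog of the clock factor Arntl, at chr6:146796055-146833529, was at 2.76, 5.3 and 7.64 CPM in iPSC, against 204, 202 and 222 CPM in day 14 GFP+ cells (log2 fold change -5.30 ± 0.19, adjusted p = 9.33e-14); it was at 13 CPM in MEF and 272 CPM at day 10. Slc39a8, a zinc and manganese importer at chr3:135825279-135888572, was at 0.778, 0.513 and 0.807 CPM in the iPSC libraries and 26.8, 25.4 and 36.4 CPM in the day 14 GFP+ libraries (log2 fold change -5.40 ± 0.21, adjusted p = 1.35e-13). In MEF, Slc39a8 was at 5.85 CPM, and at day 10 at 109 CPM. Cd59a, an inhibitor of complement, at chr2:104095801-104115354, was at 3.32, 3.54 and 0.931 CPM in the 3 iPSC clones and 51.9, 61.5 and 59 CPM in day 14 GFP+ cells (log2 fold change -4.47 ± 0.23, adjusted p = 3.22e-11). In MEF, Cd59a was at 2.62 CPM, and at day 10 at 87.5 CPM. These 3 were thus low in MEF, high at day 10 and at day 14, and low again in iPSC. Mst1, Tcrg-C1, Cyyr1 and Tex13 had log2 fold changes of -4.70, -4.51, -4.17 and -4.15, and Usp9y is given above. Without the iPSC library labelled 65E5 the log2 fold change of Tex13 was -6.14. In wild-type iPSC lines of the separately normalized table, Trpm2 was at 0, 0.244 and 0.228 CPM, Clec2g at 0, 0 and 0.171 CPM and Arntl2 at 10.7, 7.9 and 8.1 CPM.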

How the data were processed

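RNA-seq of poly(A) RNA (TRIzol and RNeasy, KAPA stranded kit) was deposited as raw read counts per gene name. The authors aligned reads to mm10 with HISAT2 2.1.0, per the submitters' processing notes, and counted them with featureCounts 1.5.3 over whole genes of GENCODE vM10 with strand setting 2, per the file headers; introns are included and reads in overlapping same-strand genes are dropped.

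From these counts, edgeR 4.0.16 (R 4.3.3) filtered genes with filterByExpr, scaled libraries by TMM and fitted the quasi-likelihood F test (robust) to all 21 nx2 libraries in 7 groups, so the spread is shared; p-values were adjusted by Benjamini-Hochberg over 16132 genes at 0.05. "Rose", "fell" and "passed the test" refer to this test. CPM use TMM-scaled totals. Tested on simulated counts for 15201 genes, it found 95.5% of changes set at 2-fold and 47.8% of those at 1.5-fold. The simulation gave every gene the same spread and changed only genes well above the floor. It does not cover genes that varied between clones or had few counts. The p-values measure the spread between these samples, pooled over all 21 libraries, and can be too small for genes that varied between the iPSC clones. For Il1rl1 the adjusted p of this test was 1.06e-06, and 0.0034 with only the 6 libraries in the fit. A floor of 3 counts per library covers counting error only.

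Named genes were the 12 largest rises and falls (called, 10 CPM or more in the higher group, no overlap, no clone-type names), up to 4 members of each of 37 lists by smallest p plus 1 called against its list's median direction, and a fixed set of markers; a few are not reported here. Genes outside it (Cdkn2b, Ddit4, Egr2, Nupr1, Slc7a11, Vldlr and Otx2 among them) were chosen after their values were seen. The members and lists were chosen with earlier results of these data known. Same-numbered samples carry the same line label; the correlations of their deviations were 0.0609, -0.121 and 0.0236, and 0.0609, -0.00956 and 0.18 with 65E4 and 65E5 exchanged among iPSC. Alternatives were other scalings, filters, samples in the fit, a replicate block, DESeq2 1.42.0 and leaving out each library.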

Additional observations from a re-analysis of the deposited data

How the results depend on the processing

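The 7555 genes called became 6146 with only the 6 libraries in the fit, 7728 with the replicate block, 7462 with DESeq2 and 7439 with library totals alone (3454 higher, 3985 lower), and 6375 to 7456 when 1 library was left out; 78.5% to 99% of the calls were kept. The median log2 fold change over all genes was -0.03 to 0.03 under every setting. A block with 65E4 and 65E5 exchanged among iPSC, and all counts per list, were chosen after seeing the data; that block gave 7775 calls. The replicate block as labelled changed no call of a named gene; with the exchanged block Dnmt3b and Dnmt3l passed (adjusted p = 0.0445 and 0.0229). Over 179 named genes, 2446 of 2502 alternative values kept direction and side of the threshold. Of the rest, 41 lost their call (14 genes, among them H19, Zfp42, Etv5, Sesn2, Wnt8a and Marveld2), 10 gained it and 5 changed sign in genes that had not passed: the log2 fold change of Col1a2 ran from -0.741 to 0.0279 when 1 library was left out, and that of Dazl from -0.439 to 0.357. For Dazl it was -0.0075 with library totals alone and -0.0042 with the replicate block. The largest feeder share, 6.96%, was 15.1% with the fibroblast list as measure, which left 1269 rises beyond it, and 2.42% to 6.96% when 1 library was left out, with 2128 to 3062 rises. The rises on the fibroblast list numbered 16 to 30, highest without iPSC replicate 3 and lowest with only the 6 libraries. The cause was not tested. Changes under 1.5-fold are limited by depth and by 3 samples a group.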

Other observations

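Rises of genes with little RNA in these MEF were listed by a rule added after the values were seen. It took genes that rose, were at 10 CPM or more in iPSC, did not overlap and were below 1 CPM in MEF. The level of these genes in the feeders themselves is not known here. There were 84 such genes, and Xist was the largest. Hal, histidine ammonia-lyase, was at 18.5, 19.9 and 24.1 CPM in iPSC, against 3.14, 1.91 and 2.28 CPM in day 14 GFP+ cells (log2 fold change 3.11 ± 0.24, adjusted p = 2.38e-09). Hrk, a BH3-only death gene, was at 26.7, 11.3 and 7.45 CPM in the iPSC libraries and 1.96, 2.55 and 1.33 CPM in the day 14 GFP+ libraries (log2 fold change 2.94 ± 0.40, adjusted p = 6.69e-06). Dpp4, a membrane peptidase, was at 28.4, 35.5 and 49.5 CPM in the 3 iPSC clones and 5.98, 4.25 and 5.73 CPM in day 14 GFP+ cells (log2 fold change 2.83 ± 0.34, adjusted p = 1.29e-06). Ina, a neuronal intermediate filament, was at 40.5, 30.1 and 31.1 CPM in iPSC, against 5.68, 4.39 and 5.1 CPM in day 14 GFP+ cells (log2 fold change 2.75 ± 0.17, adjusted p = 1.52e-10). Halr1, a noncoding RNA next to the Hoxa cluster, was at 38.7, 63.5 and 60.0 CPM in the iPSC libraries and 9.6, 10.1 and 7.54 CPM in the day 14 GFP+ libraries (log2 fold change 2.57 ± 0.24, adjusted p = 3.51e-08).

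Relatives of genes that fell most moved in part with them. Cd59b, next to Cd59a on chromosome 2, was at 4.81, 2.74 and 1.61 CPM in the 3 iPSC clones and 23.6, 23.4 and 26.6 CPM in day 14 GFP+ cells (log2 fold change -3.02 ± 0.22, adjusted p = 1.32e-09). Ceacam1, next to Ceacam2 on chromosome 7, was at 2.4, 1.94 and 3.6 CPM in iPSC, against 11.6, 10.1 and 12.4 CPM in day 14 GFP+ cells (log2 fold change -2.10 ± 0.27, adjusted p = 2.41e-06), while Ceacam20 had a log2 fold change of 1.83 ± 0.63 with an adjusted p of 0.0239. Zscan4d was at 1.91, 4.11 and 3.85 CPM in the iPSC libraries and 0.49, 0.142 and 0.707 CPM in the day 14 GFP+ libraries, and Zscan4f at 1.27, 1.65 and 1.99 CPM in the 3 iPSC clones and 0.098, 0 and 0.0785 CPM in day 14 GFP+ cells; in wild-type iPSC lines of the separately normalized table Zscan4a was at 23.6, 6.36 and 7.76 CPM.

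Genes with at least a 4-fold gap between 1 library and both others of its group, at 10 CPM or more, were counted. In the iPSC library labelled 65E1, 8 genes stood below, 3 of them Meg3, Rian and Mirg on chromosome 12. In that labelled 65E5, 9 stood below, 6 of them on the Y chromosome, and 2 above, and in that labelled 65E4, 3 stood below and 5 above. Day 14 GFP+ libraries had 1 to 4 below and at most 1 above. Median log2 deviations of autosomes from the day 14 GFP+ mean were -0.11 to 0.17 in iPSC and -0.02 to 0.02 in day 14 GFP+ libraries. That mean is of the same day 14 GFP+ libraries, so their own deviations are small by construction. Those of iPSC also hold the differences in expression between the groups, so the 2 ranges cannot be compared. Chromosome 13 was at 0.0998, 0.101 and 0.168 in the 3 iPSC libraries and chromosome 18 at 0.0751, 0.111 and 0.146.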
